A study of Homo sapiens with 14 samples.

Results

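HERVH is an endogenous retrovirus, a virus that entered the primate germ line and was copied through the genome, and its copies (integrants) are still transcribed in human pluripotent cells. All integrants whose name in the deposited annotation holds HERVH-int, the internal sequence of the virus, were taken, with or without a flanking LTR7. This gave 1492 of the 4570939 integrants of transposable elements (TEs) in the table. LTR7 was the only LTR type named for 958 of them, LTR7B for 212, LTR7Y for 93 and LTR7C for 76, while 34 named several of these and 119 none. An LTR was annotated at both ends of 859, at 1 end of 513 and at neither end of 120. Because 330 members lay within 1 kb of another, the 1492 stood for 1309 separate places, some of which are 1 provirus in several parts.

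A provirus has a long terminal repeat (LTR) at each end, of which the one at the 5′ end carries the promoter. LTR7 and its variants drive HERVH and respond to the transcription factors of pluripotent cells, and several long non-coding RNAs of these cells, such as ESRG, are transcribed from such proviruses. HERVH RNA is used as a marker of human pluripotency.

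RNA was measured in 12 bulk libraries of H9, a human embryonic stem cell (hESC) line that is 1 established line. The groups were hESC (2 libraries), endoderm with dCAS9-KRAB and no sgRNA (3), endoderm with dCAS9-KRAB and an sgRNA to LTR5 (3), foregut without the sgRNA (2) and foregut with it (2). dCAS9-KRAB is a Cas9 that does not cut and is fused to a repressor domain, and LTR5 is the LTR of another retrovirus, HERVK. The labels of the hESC give no dCAS9-KRAB. Activin A at 100 ng/ml made the endoderm in 3 days, beside CHIR-99021 at 5 µM and then at 0.5 µM, and the study's methods describe the foregut as made from endoderm over a further period with a commercial pancreatic kit. The foregut groups rest on the sample titles, because other labels of the same samples go against them: the libraries titled as foregut controls are also described as hESC in stem cell medium, and those titled as foregut with the sgRNA are also described as endoderm without it. The study describes its RNA-seq replicates as biologically independent, the sample labels do not give their cultures, and p values measure the spread between these libraries.

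Marker genes were read beside the titles. GATA6, an endoderm factor, was at 0 CPM (the counts-per-million scale, over gene counts) in both hESC libraries, at 327 to 440 in endoderm and at 131 and 142 in the foregut controls. CER1, secreted by early endoderm, averaged 3849 CPM in endoderm and 0.877 in the foregut controls. PDX1, a factor of the posterior foregut, stood at 25.5 and 25.9 CPM in the foregut controls and at 0 in hESC, and POU5F1, the core pluripotency factor, at 2.39 and 4.55 CPM in the foregut controls against 286 and 620 in hESC. In foregut with the sgRNA GATA6 stood at 118 and 170 CPM, CER1 at 0 and 2.31, PDX1 at 2.42 and 8.50 and POU5F1 at 3.52 and 0.769, and no value here shows which libraries carried the sgRNA. Of 8 pluripotent markers 6 were lower in the foregut controls than in hESC, where 16.4% of all genes tested were. LIN28A (756 and 605 CPM against 464 and 997) and SOX2 (180 and 149 against 150 and 176) were not. Of 7 foregut markers 3 were higher in the foregut controls than in endoderm, where 14.1% of all genes were. HHEX (32.7 against 50.6 CPM) and PROX1 (2.16 against 7.83) had lower means there, not called. Markers of other cell types were also read. Of 5 mesoderm markers 4 rose in endoderm over hESC, where 14.2% of all genes tested did. Their summed level was 69.0 to 79.5 CPM in hESC, 113 to 222 in endoderm and 24.3 to 40.2 in the foregut controls. KDR, the marker not called in endoderm, was at 67.8 and 78.6 CPM in hESC and made up most of those hESC sums. Of 4 neural markers 1 rose and 2 fell, where 14.2% and 11.7% of all genes did. The neural sums were 43.2 to 57.4, 9.01 to 14.2 and 0 to 0.781 CPM. Their part in the results that follow was not tested.

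Levels are given on the reads-per-million scale, over the gene reads of the library (RPM), and gene reads ranged from 11583063 to 37152434 per library. The 4 foregut libraries stood apart in how reads were spread. An integrant with any read held a median of 12 to 31 reads there and of 1 or 2 in the other 8 libraries, and only 6.62 to 8.70% of such integrants held 1 or 2 reads, against 69.7 to 84.0%. They also showed fewer genes, 15005 to 17926 against 19678 to 20973. Low foregut values are therefore coarse, whether reads of a foregut library are independent was not tested, and no lower bound on a fold is given against a foregut group. Counting used uniquely mapped reads, so young copies that differ little from each other can be under-counted, and levels of different proviruses are compared here as shares of reads.

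The 5′ LTR sequence separated the proviruses that carried most reads in hESC from those that rose in endoderm. The 784 members taken named LTR7 alone and had it annotated at the 5′ end, with sequence in the genome used (GRCh37). Their first 480 bases were divided in 2 by their 8-letter words, with no expression value used, although the split was chosen with the levels known. Group A held 238 members and group B 546, and 708 members stayed outside. Among these were all LTR7Y, LTR7B and LTR7C members and those naming several LTR7 types, whatever 5′ LTR they had. Of the 868 words used, 243 differed in presence between the groups by 50 percentage points or more. AAAGTCCT, read on the strand of the provirus, was in 216 of the 238 LTRs of group A (90.8%) and in 3 of the 546 of group B, and AAATTCCT was in 442 of group B (81.0%) and 6 of group A. The same words, counted on either strand, were in 1.09% and 1.27% of gene promoters of 300 bases, a shorter window. TATAAA on the provirus strand, the letters of the TATA box, stood in 94.5% of group A at a median position of 317 and in 83.3% of group B at 271. Within the first 300 bases it was in 3.36% of A and 71.4% of B. Of the gene promoters of that length 11.5% held it on either strand. ACAATG on either strand was in 2.10% of A and 32.4% of B, and in 10.8% of the gene promoters. AGATAA on either strand was in 66.0% of A and 42.3% of B. Within the first 300 bases it was in 2.10% and 37.7%, and 10.3% of the gene promoters held it. TGATAA was in 2.10% of A and 5.68% of B, and TTTGCAT in 0.420% and 0.366%, both on either strand. A match is a description of these windows and does not show that a factor binds.

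The median identity of the 2 LTRs of a provirus, which were the same when it inserted, was 96.4% in group A, 94.8% in group B and 97.4% in the LTR7Y members.

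HERVH gave a large part of the TE reads of hESC and endoderm. It held 42.4 and 52.8% of all TE reads in the hESC libraries, 32.2 to 39.1% in endoderm, 21.7 to 29.1% in endoderm with the sgRNA and 0.600 to 0.951% in the 4 foregut libraries. The summed level was 6562 and 8228 RPM in hESC, 5197, 5206 and 3890 in endoderm, and 132.5 and 102.5 in the foregut controls. hESC lay above endoderm by 1.56-fold and above foregut by 63.1-fold, without overlap of the libraries. An exact two-sided permutation test gave p = 0.2 for hESC with endoderm and for endoderm with foregut, and 0.333 for hESC with foregut, each the smallest these group sizes allow. In bulk RNA, fewer cells that express HERVH and less HERVH RNA per cell cannot be told apart.

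A few loci carried hESC. In each hESC library 6 members held 50% of the HERVH reads, and the 10 leading members held 66.3 and 65.2%. In endoderm it took 14 or 15 members to reach 50%, and the 10 leading members held 40.2 to 43.96%. With the sgRNA the 10 leading members held 34.6 to 38.4%, and in foregut 58.7 to 61.5% of a far smaller total. The number of members with any read was 632 and 689 in hESC and 778 to 827 in endoderm, so that endoderm spread fewer HERVH reads over more loci. Over all 12 libraries 1063 members had a read and 429 had none.

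**Figure D1:**
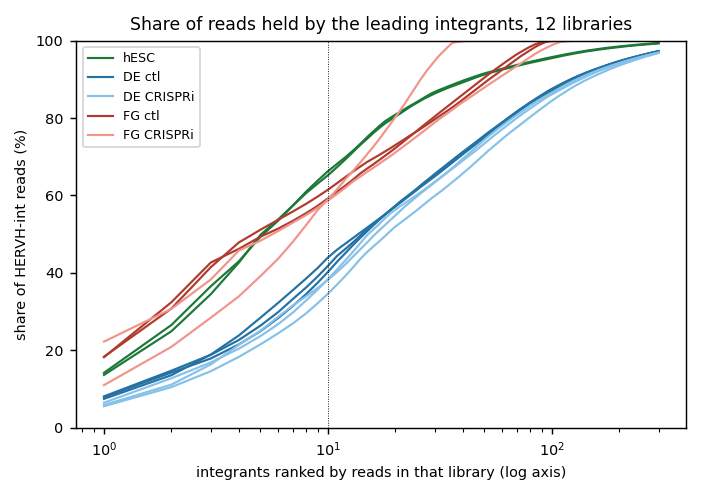
Share of the HERVH-int reads of a library (%, vertical) held by its leading integrants, ranked by reads in that library (horizontal, log axis), with 1 line for each of the 12 libraries coloured by group and a dotted line at 10 integrants. At 10 integrants the hESC lines stand at 65.2 and 66.3% and the endoderm lines without the sgRNA between 40.2 and 43.96%.

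The locus with most reads in hESC was chr6:114743465-114749461, which overlaps an exon of HDAC2-AS2, a long non-coding RNA, and names several LTR7 types. It was at 894 and 1165 RPM in hESC, at 141, 180 and 134 in endoderm and at 48.6, 105 and 63.5 in endoderm with the sgRNA, and it held 13.9% of the HERVH reads of hESC. Every endoderm library lay below both hESC libraries. The intergenic provirus chr1:223197738-223203498 followed with 741 and 1017 RPM in hESC (11.9% of the reads), 277, 420 and 307 in endoderm and 0 reads in both foregut controls. It was the leading locus of endoderm as well, with 7.02% of the reads. chr3:112137259-112142212, also in no annotated gene, held 629 and 825 RPM in hESC and 386, 346 and 247 in endoderm.

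Below these came chr4:180087630-180091722 with 534 and 529 RPM in hESC and 240, 193 and 133 in endoderm, and chr13:51744002-51749142, which overlaps an exon in C13orf42, with 472 and 524 and then 106, 142 and 104. Both lay lower in every endoderm library than in hESC. Of the 10 leading members of hESC, 9 were of group A and none of group B, 2 overlapped exons, and all 10 were also the leading 10 per kilobase of length. Together they held 65.7% of the HERVH reads of hESC (4858 ± 719.7 RPM, SD, n = 2), 33.6% of those of endoderm (1600 ± 291.7, n = 3) and 1.64% of those of the foregut controls. Endoderm shared 6 of its 10 leading members with hESC, and the foregut controls shared none with either.

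**Figure D2:**
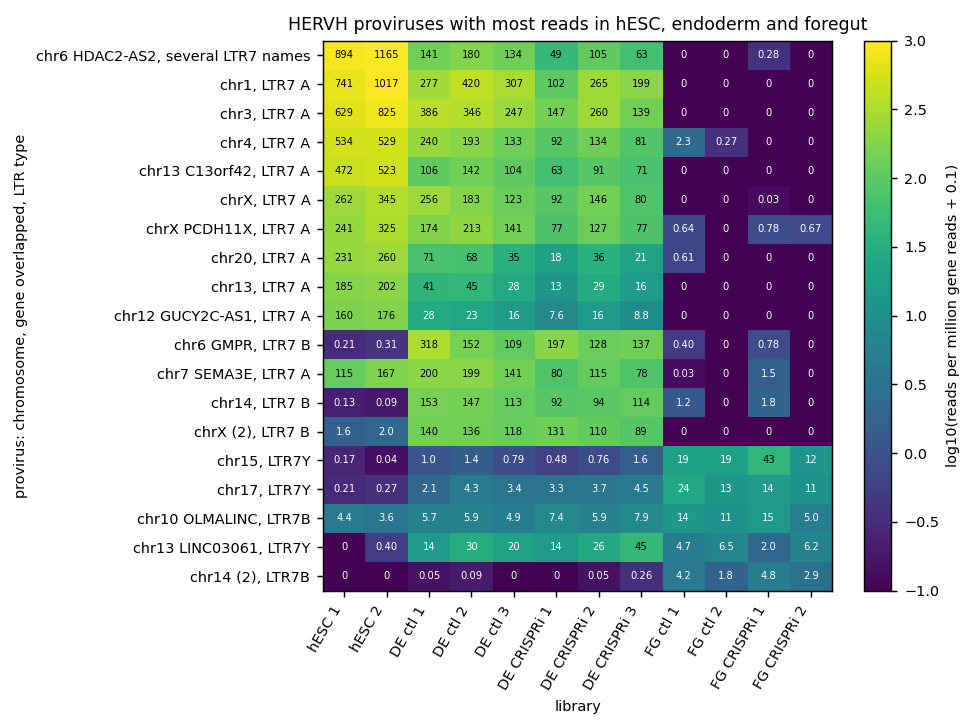
Level of the leading HERVH proviruses (rows: chromosome, gene overlapped and LTR type) in the 12 libraries (columns), as the log10 of RPM + 0.1 in colour. Rows of group A are high in hESC, rows of group B are low in hESC and high in endoderm, and a few LTR7Y and LTR7B rows carry the foregut libraries.

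Between hESC and endoderm, proviruses moved in both directions. Of 699 members tested, 171 rose (24.5%) and 48 fell (6.87%), where 2.91% of all 32490 integrants tested rose and 1.27% fell. The median log2 fold change was 0.73 over the members and -1.34 over all integrants. A member was called by edgeR's quasi-likelihood test at a Benjamini–Hochberg adjusted p under 0.05 over all integrants and a change over 2-fold. Of the 219 called members 198 also had libraries that did not overlap and at least 0.5 RPM in the higher group. That count served only to name members. It was taken on the same libraries as the calls, has no share over all integrants beside it, and adds no support to them. With all 12 libraries in 1 fit 109 were called, 97 higher and 12 lower.

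The directions followed the LTR sequence. In group A 41 of 185 tested members fell and 6 rose, in group B 135 of 316 rose and 3 fell, and of 198 others 30 rose and 4 fell. The median log2 fold change was -1.04 in group A and 3.39 in group B. The summed level of group A went from 5436 and 6761 RPM in hESC to 2940, 2995 and 2070 in endoderm, and that of group B from 121.9 and 164.6 to 1731, 1598 and 1311. Group A was thus 2.30-fold lower and group B 10.8-fold higher in endoderm, and their shares of the HERVH reads went from 82.5 and 1.94% to 56.0 and 32.5%. Because the split was chosen with levels known, these sums carry no test. Of the 123 members with a mean of 1 RPM or more in endoderm only, among hESC, endoderm and the foregut controls, 104 were of group B and 5 of group A, while of the 143 in both hESC and endoderm 111 were of group A and 19 of group B.

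**Figure D3:**
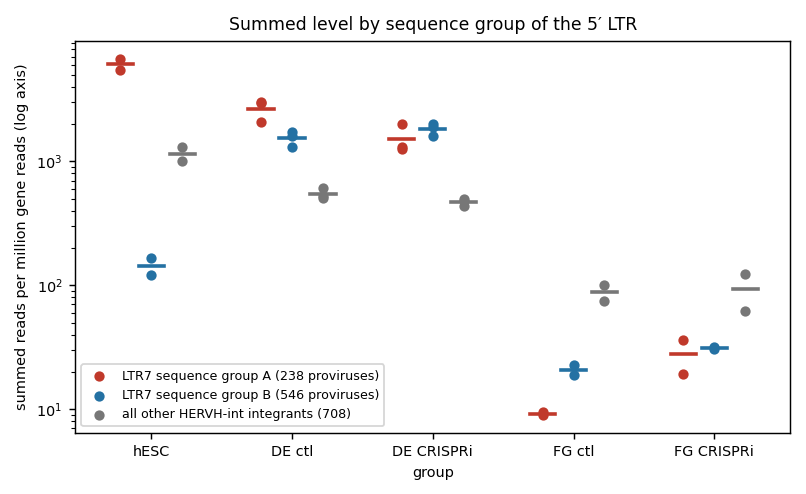
Summed RPM (log axis) of the members of LTR sequence group A, group B and those outside both, per library (points) with the group mean, in the 5 groups of libraries. Group A stands highest in hESC, group B stands above its hESC level in all 6 endoderm libraries, and both are under 40 RPM in the 4 foregut libraries.

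Among the loci that fell, the intergenic proviruses of group A kept a part of their level. chr1:223197738-223203498 fell by 1.31 ± 0.31 on the log2 scale (± SE, adjusted p = 0.0012), chr3:112137259-112142212 by 1.08 ± 0.31 (adjusted p = 0.017) and chr4:180087630-180091722 by 1.43 ± 0.32. chr12:14858355-14863574, inside GUCY2C-AS1, fell further, from 160 and 176 RPM to at most 28.1 in endoderm (-2.85 ± 0.35, adjusted p = 4.4e-14). chr13:43442140-43447294 went from 185 and 202 RPM to 41.1, 45.1 and 27.7, and chr20:38897694-38903401 from 230 and 260 to 70.8, 67.6 and 35.4. The largest falls of members outside exons and over 0.5 RPM were those of chr18:71960324-71966271 (-3.36 ± 0.85), which held 1.15 and 0.842 RPM in hESC, and of chr9:76700499-76706352, from 40.4 and 55.2 RPM to 4.42, 7.48 and 3.72 (-3.12 ± 0.38, adjusted p = 3.8e-14). The call of chr18:71960324-71966271 was lost without hESC replicate 1 (adjusted p = 0.095 with edgeR).

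The other 2 of the 5 largest falls outside exons, beside chr12:14858355-14863574, were those of chr2:193783029-193789561, 1 of the 3 members of group B that fell, from 2.21 and 3.95 RPM to at most 0.712, and of chr13:56229066-56234937, from 7.94 and 8.78 RPM to at most 1.58. Members that overlap exons were tested in a fit that kept such integrants, and there chr6:114743465-114749461 fell by 2.69 on the log2 scale (SE 0.30, adjusted p = 1.1e-16) and chr13:51744002-51749142 by 2.01. chr4:23724496-23729489, the ERVH-1 locus, was the largest fall of this kind, from 0.425 and 0.798 RPM to 0, 0.0929 and 0. Not all leading loci of group A passed the test. chrX:113701125-113706984 held 262 and 345 RPM in hESC and 256, 183 and 123 in endoderm (-0.62 ± 0.32, adjusted p = 0.42), where the lowest hESC library lay just above the highest of endoderm. chrX:91355239-91360916, which lies in PCDH11X on the opposite strand, held 241 and 325 and then 174, 213 and 141 (adjusted p = 0.45). chr7:83088984-83094699 in SEMA3E held 115 and 167 RPM in hESC and 200, 199 and 141 in endoderm (0.43 ± 0.32, adjusted p = 0.62), where the libraries overlapped.

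The proviruses that rose were low in hESC and carried much of the HERVH RNA of endoderm. chr6:16259243-16265124, on the opposite strand of GMPR, an enzyme of purine metabolism, was at 0.212 and 0.310 RPM in hESC and at 318, 152 and 109 in endoderm (9.56 ± 0.55, adjusted p = 4.6e-64). GMPR itself went from 0.110 to 25.5 CPM on average. chrX:103017989-103022234 rose from 1.61 and 1.99 RPM to 140, 136 and 118 (6.26 ± 0.47, adjusted p = 8.2e-38). chr14:48731599-48737485, shown here with other values chosen after they were seen, rose from 0.127 and 0.0887 RPM to 153, 147 and 113. All 3 were of group B.

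The largest fitted rises were those of members with no read in either hESC library, for which the fold is given against 3 reads over the hESC group (0.0651 RPM). chr5:135070535-135073175 and chr5:135066688-135070234, neighbouring parts on the opposite strand of SLC25A48, a mitochondrial carrier gene, were at 68.3, 59.4 and 64.2 RPM and at 45.9, 44.4 and 42.8 RPM in endoderm, at least 983-fold and 682-fold higher. SLC25A48 itself went from 0.950 to 6.09 CPM. chr13:61662592-61668573, over LINC00378, reached 17.1, 27.3 and 26.0 RPM (at least 360-fold), and chr14:101771591-101777584, in no annotated gene, 11.7, 9.06 and 12.5 (at least 170-fold). Reads in all 3 endoderm libraries were required by the rule that named these loci. Of the 171 members that rose 59 had no read in hESC, so these passed the read filter through endoderm alone. That count has no share over all integrants beside it, and nothing is read from its size.

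**Figure D4:**
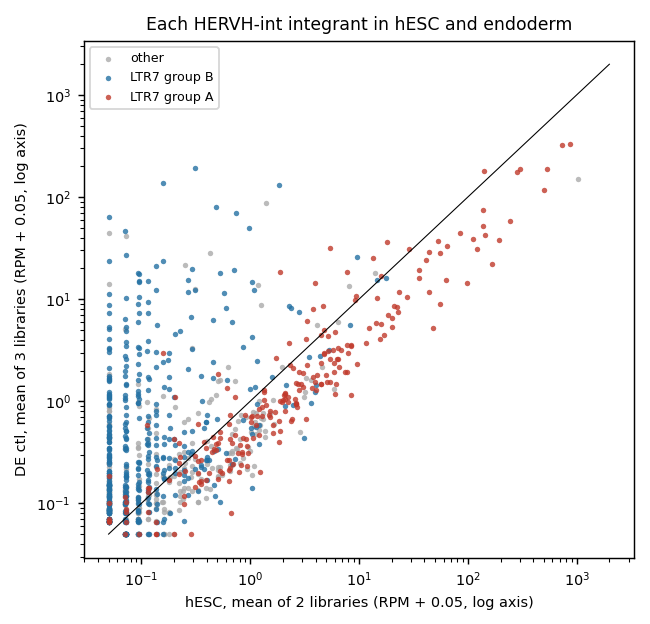
Mean RPM + 0.05 of each HERVH-int integrant in hESC (horizontal, 2 libraries) and in endoderm without the sgRNA (vertical, 3 libraries), both on log axes, coloured by LTR sequence group, with the line of equal level. Group A lies near and below the line up to the highest levels, and group B rises above it from the left edge.

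The position of members in genes was read beside their direction. Of 278 members within protein-coding genes, 215 lay on the opposite strand to the gene and 58 on the same strand. Of 90 tested members on the opposite strand 31 rose and 3 fell, of 17 on the same strand 2 rose, and of 592 in no coding gene 138 rose and 45 fell. Whether the authors counted by strand is not stated, so reads of a gene's introns and of a provirus inside it cannot be told apart where both are transcribed. By LTR type, 150 of 558 tested LTR7 members rose and 45 fell, 9 of 69 LTR7Y members rose and 3 fell, 5 of 37 LTR7B members rose, and of 14 with no LTR7 name 3 rose. Members with an LTR at both ends held 7274 of the 7395 RPM of hESC.

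Transcription factors known to act on LTR7 did not move together. POU5F1 had a log2 fold change of 0.79 ± 0.24 in endoderm over hESC, under the limit of 2-fold. SALL4, a zinc finger factor of stem cells, rose (1.08, adjusted p = 0.0019), while SOX2 fell from 150 and 176 CPM to 29.6, 25.3 and 15.1, and KLF4 (-1.67) and TFCP2L1 (-2.73), factors of naive pluripotency, fell too. NANOG was at 27.9 and 50.8 CPM in hESC and 27.9, 30.7 and 21.1 in endoderm (adjusted p = 0.12). So 1 of 6 of these genes rose and 3 fell, where 14.2% of all genes tested rose and 11.7% fell. Of 5 measured genes that repress endogenous retroviruses, none was called in endoderm, all by edgeR. TRIM28 was lower, at 1169 and 1250 CPM in hESC and 631, 798 and 722 in endoderm (-0.68, adjusted p = 0.0055). SETDB1 was higher, at 42.3 and 45.7 CPM and then 62.1, 65.5 and 56.8 (0.56, adjusted p = 0.026). Both changes were under the limit of 2-fold. DNMT1, ATRX and MPHOSPH8 had adjusted p from 0.11 to 0.80. Of 9 measured genes that carry HERVH sequence, LINC00458 (from 0.435 to 56.8 CPM), HHLA3 and ABHD12B rose, and ESRG (from 68.6 to 26.9 CPM) and SCGB3A2 (from 46.9 to 7.28 CPM) fell. The provirus of ESRG, chr3:54668511-54674231, was at 78.0 and 93.0 RPM in hESC and 55.9, 48.1 and 29.6 in endoderm (-0.87 ± 0.33, adjusted p = 0.13), and reads of its exons could go to the gene.

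In foregut most of this expression was gone. Of 493 members tested in the foregut controls against hESC 136 were lower and 4 higher, where 0.531% and 1.25% of all integrants were, and of 675 tested against endoderm 277 were lower and 5 higher, where 1.75% and 3.82% of all integrants were. The median log2 fold change against hESC was -6.19 over the members and 3.35 over all integrants, and against endoderm -6.05 and 4.07. POU5F1 was at under 5 CPM and NANOG at 0 in both foregut controls, while SOX2 was at 180 and 149 CPM. Of the 6 factors known to act on LTR7, 4 were lower there than in hESC and 0 higher. Of all genes tested 16.4% were lower and 16.55% higher. SOX2 and KLF4 (adjusted p = 0.43 with edgeR) were not called. The part of these factors in the lower members was not tested. The 171 members that had risen in endoderm summed to 53.6 RPM in hESC, 1658 in endoderm and 52.5 in the foregut controls, where 139 of them had no read in either library. The 48 that had fallen summed to 3812, 1262 and 5.31 RPM. Both sets were chosen by the calls of endoderm against hESC on the same libraries, so the direction between those 2 stages was fixed by the choice. Choosing the 171 for high endoderm values also favours a lower value in foregut. The foregut calls depended on the test, as DESeq2 called 17 members against hESC and 24 against endoderm, all lower. The foregut counts were also divided by the median count of their library, an alternative added after the data were seen. On these edgeR called 134 (5 higher) and 232 (5 higher).

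A small set of loci, most with LTR7Y or LTR7B, carried the HERVH reads left in foregut. LTR7Y members held 41.97% of them and LTR7B members 22.3%, against 0.802 and 0.222% of those of hESC. The sum over LTR7Y members was 51.7 and 66.9 RPM in hESC, 126, 165 and 156 in endoderm and 57.9 and 40.7 in the foregut controls. Of the 10 leading members of the foregut controls 4 were LTR7Y, 3 LTR7B, 1 group A and 1 group B, and 8 of the 10 were also among the leading 10 of foregut with the sgRNA.

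The LTR7Y provirus chr15:53719041-53724660 led, at 0.170 and 0.0443 RPM in hESC, 1.02, 1.44 and 0.794 in endoderm, 18.8 and 18.8 in the foregut controls and 42.6 and 12.3 in foregut with the sgRNA. It was higher in the foregut controls than in hESC (7.44 ± 0.71, adjusted p = 9.7e-23) and than in endoderm (4.12 ± 0.60, adjusted p = 5.8e-10). chr17:11875073-11880264, also LTR7Y, stood at 0.212 and 0.266, then 2.14, 4.27 and 3.36, and then 24.1 and 12.8 RPM (6.36 ± 0.67 against hESC). Both rose at each step without overlap of the libraries, which for foregut was part of the rule that named them and adds no support. The median log2 fold change over all integrants tested was 3.35 in foregut against hESC and 4.07 against endoderm. The step from endoderm to foregut was thus close to that median for chr15:53719041-53724660 and below it for chr17:11875073-11880264 (2.54 ± 0.56). DESeq2 called neither (adjusted p = 0.15 against hESC and 0.58 against endoderm), and with TE reads as library sizes edgeR no longer called the step of chr17:11875073-11880264 from endoderm to foregut (adjusted p = 0.70).

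chr14:21282677-21284889, with LTR7B, had no read in hESC, at most 0.0929 RPM in endoderm, and 4.20 and 1.80 in the foregut controls (5.81 ± 0.94 against endoderm, adjusted p = 5.4e-08). chr13:109917438-109923464, an LTR7Y provirus over LINC03061, peaked in endoderm instead, with 0 and 0.399 RPM in hESC, 14.2, 30.0 and 19.7 in endoderm and 4.66 and 6.54 in the foregut controls. It differed in all 3 steps (adjusted p = 4.6e-30 for the rise in endoderm, 5.0e-05 for foregut against hESC and 0.029 for the fall to foregut), although that of foregut against hESC was lost without hESC replicate 1 (adjusted p = 0.16). chr18:71960324-71966271 went the other way, from 1.15 and 0.842 RPM to at most 0.122 in endoderm and to 2.14 and 2.23 in the foregut controls (4.56 ± 0.99 against endoderm, adjusted p = 0.00017). That step lay close to the median of 4.07 over all integrants. chr3:125966174-125967533, with LTR7C, held 0.766 and 0.861 RPM in the foregut controls and no read in endoderm (adjusted p = 0.019), a call lost without any 1 of the 3 endoderm libraries (adjusted p from 0.15 to 0.19).

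Of the other leading members of the foregut controls, chr10:102147193-102148155, an LTR7B fragment over an exon of OLMALINC, was at 4.42 and 3.64 RPM in hESC, 5.75, 5.85 and 4.88 in endoderm and 13.6 and 10.955 in the foregut controls (adjusted p = 0.067 against hESC). chr6:117979960-117986363, LTR7B and named after its values were seen, had means of 1.93 RPM in hESC, 2.11 in endoderm and 2.98 in the foregut controls. With 2 libraries of clumped reads, single foregut values near these levels have little precision.

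In endoderm the LTR5 sgRNA was compared with its absence. The summed level was 3565, 4120 and 3802 RPM with the sgRNA and 5197, 5206 and 3890 without it, ranges that overlap (exact permutation test, two-sided p = 0.2, where 0.1 is the smallest possible). Of 713 members tested none was called by edgeR, where 0.0285% of all integrants were, while 86 had an unadjusted p under 0.05, DESeq2 called 0 and limma voom 15 (6 higher and 9 lower). Without the first library with the sgRNA edgeR called 4. No share over all integrants is given for the counts at unadjusted p, with voom or without that library, so nothing is read from their size.

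Each sequence group was set beside the median over all integrants tested, a log2 fold change of 0.175. In group A 147 of 184 log2 fold changes were below 0 with a median of -0.69, and 37 had an unadjusted p under 0.05 in that direction and none in the other. In group B 200 of 332 were above 0 with a median of 0.19, close to that of all integrants, so that nothing is read from its sign, and 31 and 8 had an unadjusted p under 0.05, higher and lower. The counts at unadjusted p in both groups have no share over all integrants beside them, and nothing is read from their size. The sum over group A was 1248, 2017 and 1304 RPM with the sgRNA and 2940, 2995 and 2070 without, 1.77-fold lower and without overlap, and that of group B 1881, 1607 and 2015 against 1731, 1598 and 1311, which overlap. None of 3 other genes read in the same libraries was called. NANOG was at 5.28, 19.3 and 14.0 CPM with the sgRNA and at 27.9, 30.7 and 21.1 without (adjusted p = 0.58), DPPA4, a pluripotency marker, at 59.6, 88.7 and 76.9 against 131, 106 and 86.8 (adjusted p = 0.78), and HAND1, a mesoderm factor, at 47.6, 38.6 and 48.7 against 13.9, 11.8 and 24.5 (adjusted p = 0.20). Of the other mesoderm markers TBX6 (0.71) and MESP1 (0.78) were higher with the sgRNA on the log2 scale, and TBXT (-0.30) and KDR (-0.26) were lower, none called. The summed pluripotent markers were at 1696 to 2263 CPM with the sgRNA and 1969 to 2693 without. The mesoderm markers summed to 128 to 204 CPM with it and 113 to 222 without. KDR was a large part of the mesoderm sums, at 96.8, 98.5 and 45.7 CPM with the sgRNA and 154, 67.9 and 74.2 without. The median log2 fold change was -0.48 over the 8 pluripotent markers and 0.71 over the 5 mesoderm markers, against -0.026 over all genes tested. None of these markers was called. Their part in the difference was not tested.

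**Figure D5:**
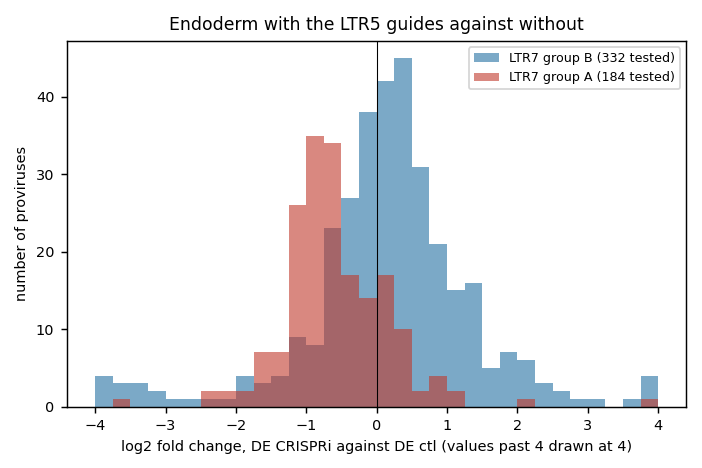
Number of proviruses (vertical) by log2 fold change of endoderm with the LTR5 sgRNA against endoderm without it (horizontal, values past 4 drawn at 4), for LTR sequence group A and group B. Group A has its median at -0.69 and group B at 0.19, where that of all integrants was 0.175, and no single provirus was called.

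Single loci are given as values, since none passed the test. chr1:223197738-223203498, of group A, was at 102, 265 and 199 RPM with the sgRNA and 277, 420 and 307 without (-0.83 ± 0.35, adjusted p = 0.64), and the HDAC2-AS2 provirus chr6:114743465-114749461, which lies outside both groups, at 48.6, 105 and 63.5 against 141, 180 and 134 (-1.06 ± 0.34, adjusted p = 0.58). Higher with the sgRNA were the values of 2 loci chosen after their values were seen. chr3:189862389-189867991, over P3H2-AS1, was at 176, 169 and 222 RPM against 61.3, 91.5 and 89.1 (1.24 ± 0.34, adjusted p = 0.24), and chrX:30467049-30472978 at 116, 126 and 192 against 48.9, 88.9 and 72.9 (1.06 ± 0.35, adjusted p = 0.64). At all 4 loci the libraries with and without the sgRNA did not overlap, which has no share over all integrants beside it. Because 2 of these loci were chosen by their values, nothing is read from this. The locus with most HERVH reads in endoderm with the sgRNA was chr3:189862389-189867991, of group B, and of its 10 leading members 6 were of group B, against 3 in endoderm without it.

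In foregut the summed level was 191.6 and 112.1 RPM with the sgRNA and 132.5 and 102.5 without (exact permutation test, two-sided p = 0.667, smallest possible 0.333). Of 154 members tested 1 was called, where 0.00777% of all integrants were. It was chr17:74602070-74607593 of group B, on the opposite strand of SNHG16, a small nucleolar RNA host gene, with 0 reads in both foregut controls and 3.55 and 8.46 RPM with the sgRNA (adjusted p = 0.0051). The same provirus was at 0.850 and 1.02 RPM in hESC, 28.7, 67.3 and 53.8 in endoderm and 46.2, 98.4 and 200.3 in endoderm with the sgRNA, while SNHG16 averaged 83.8 to 128 CPM in the 5 groups. The call was lost with DESeq2 (adjusted p = 0.61), without foregut control replicate 2 (0.29), without foregut sgRNA replicate 2 (0.55) and with the divided counts (0.18). The foregut libraries with the sgRNA also held less PDX1, at 2.42 and 8.50 CPM against 25.5 and 25.9 (adjusted p = 0.0022). Whether the effect of the sgRNA differed between the tissues was tested as an interaction, which called 10 of 733 members, where 0.0374% of all integrants were, on reads in 1 or 2 foregut libraries.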

How the data were processed

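The 12 bulk libraries were TruSeq stranded mRNA. The authors aligned reads with HISAT2 to hg19 and counted uniquely mapped reads (MAPQ over 10) with featureCounts on genes and TEs together, after merging fragments of 1 integrant, and the deposited values are raw counts. Strand use in counting is not given in the sources used here. The gastruloid data were not used here.

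Members and lists were chosen with earlier results of these data known. Counts were tested with edgeR 4.0.16 in R 4.3.3 (quasi-likelihood F test, two-sided), 1 fit per comparison over all integrants outside exons with at least 3 reads in 1 sample, with library sizes and TMM factors from genes. A call needed a Benjamini–Hochberg adjusted p under 0.05 over all integrants and a change over 2-fold. Genes were tested likewise over all genes. No count test was made of exon-overlapping members in the main fits, and their values come from fits that kept them. Proviruses were named by a rule, which took the highest levels over all groups and in hESC, endoderm and foregut controls, and the 5 largest rises and falls of called members without overlap and with at least 0.5 RPM, plus those called for the sgRNA, and 10 others were named after their values were seen. The result for 1 member named by the rule and the sequences of the LTRs are not reported here. The fits were tested on simulated data. LTRs were cut from GRCh37 and divided by k-means (scikit-learn 1.9.0), and 17 members on other contigs were not cut. Sums were compared with exact permutation tests (scipy 1.17.1). Mean ± SD is over libraries. Intervals and floors of 3 reads cover counting error only. Alternatives were DESeq2 1.42.0, limma 3.58.1 voom, other library sizes and filters, a replicate block and leaving out each library.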

Additional observations from a re-analysis of the deposited data

Results flagged for a closer look

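For 10 members the effect of the sgRNA differed between foregut and endoderm by the interaction test of edgeR's quasi-likelihood fit, adjusted over 69490 integrants. The difference (foregut minus endoderm, log2) was 8.86 for chr17:74602070-74607593 (adjusted p = 3.9e-17), which held 3.55 and 8.46 RPM in foregut with the sgRNA and no read in the foregut controls. It was 6.81 for chr5:135066688-135070234, with 0.345 and 1.49 RPM in foregut with the sgRNA and none without.

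The other 6 higher differences rested on 1 foregut library with the sgRNA each, and the foregut controls had no read of these members. They were 8.64 for chr5:12663720-12668442 (2.98 RPM in that library), 7.84 for chr14:48724402-48730143 (1.44 RPM), 6.72 for chr10:53793517-53799321 (0.534 RPM), 6.32 for chr5:135070535-135073175 (0.785 RPM), 5.75 for chr3:97909932-97915635 (0.440 RPM) and 5.14 for chr5:161702434-161708166 (0.377 RPM, adjusted p = 0.040). Without the library that held the reads, the first 3 of these were 0.689, 0.615 and 0.903 and were no longer called.

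The lower differences were -7.13 for chr4:180087630-180091722, with 2.33 and 0.269 RPM in the foregut controls and no read with the sgRNA, and -7.20 for chr4:3929173-3934807, with 2.11 and 0.135 RPM and then no read. Without foregut control replicate 1 they were -4.63 and -3.93 and were no longer called.

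A fit that kept exon-overlapping integrants called 15 members. Among them were chr6:114743465-114749461 (6.02, adjusted p = 0.0035), with 0.283 and 0 RPM in foregut with the sgRNA and 0 in both foregut controls, and chr7:83088984-83094699 (6.40, adjusted p = 3.4e-10), with 1.54 and 0 RPM against 0.0306 and 0. With the foregut counts divided by the median count of their library, none of the first 10 differences was called. Foregut reads were clumped in all 4 foregut libraries, and the part of this in the differences was not tested.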

How the results depend on the processing

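Every count of calls for endoderm against hESC lay within 1.5 times 219 except that of 1 fit of all 12 libraries (109). Against hESC, foregut controls gave 140 calls and 17 with DESeq2, 266 with limma voom, 215 at unadjusted p, 289 with TE library sizes and 101 to 227 with 1 library left out (217 without foregut control replicate 1 and 227 without replicate 2). Against endoderm they gave 282, and 24 with DESeq2 and 475 with TE library sizes. For the sgRNA in endoderm 0 became 15 with voom (6 higher), 66 at unadjusted p with the 2-fold limit and 0 to 4 with 1 library left out. For the sgRNA in foregut 1 became 0 with DESeq2, TE library sizes and divided counts, 13 in 1 fit of 12 and 0 to 1 with 1 library left out. The interaction gave 10, 0 with DESeq2 and with divided counts, 5 with voom and 52 at unadjusted p. The summed log2 difference of foregut with the sgRNA (0.33) turned to -0.040 per TE reads and ranged from -0.056 to 0.72 with 1 library left out, the lowest without foregut sgRNA replicate 1. Without exon-overlapping members the share of the 10 leading members was 69.3% in hESC, 47.5% in endoderm, 41.6% in endoderm with the sgRNA, 64.3% in foregut controls and 65.9% in foregut with the sgRNA. The cause of these moves was not tested. Group sums kept their direction in hESC and endoderm under each alternative run.

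Same-numbered libraries of endoderm with and without the sgRNA correlated at 0.055, -0.00073 and 0.030, so the numbers were not taken to pair them. With a replicate block 3 members were called there (1 higher and 2 lower), and 180, all lower, in foregut controls against endoderm.

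Depth limits single loci: 3 reads are 0.0808 to 0.259 RPM in 1 library, and whether this limit holds for clumped foregut reads was not tested.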

Other observations

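Members named in no comparison above were the other leading loci of the foregut controls, chosen after their values were seen. chrX:3471183-3475587, with LTR7Y, averaged 0.721 RPM in hESC, 0.590 in endoderm and 2.33 in the foregut controls. chr19:9650019-9651409, an LTR7C fragment over ZNF426-DT, averaged 0.280, 0.716 and 2.14 RPM. chr8:115253833-115259312, of group A, averaged 3.02, 1.32 and 2.25 RPM, and was the member of group A among the 10 leading members of the foregut controls. None of these differences was called by edgeR (adjusted p from 0.13 to 0.74 for foregut against endoderm or hESC).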
